A study of Danio rerio with 28 samples.

Results

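The translation factor genes are the proteins that carry a ribosome from the start of a coding sequence to its end. They were taken from the single-cell table of a study of zebrafish germ cells. Every gene was used whose name begins, in upper or lower case, with eif, eef, pabp or etf1. This gave 26 genes of the 1017 listed: 15 initiation factors, 2 eif5a genes, 4 elongation factors, 4 poly(A)-binding proteins and 1 release factor, sorted by name. All 26 names matched a zebrafish gene symbol in the tables of gene names used. No other genes of these families in the genome were looked at, since the table lists only these.

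The study set germ cells that lack Tdrd6a, a protein with Tudor domains found in germ plasm granules, against wild-type germ cells. Cells were sorted singly into Trizol from embryos of mz tdrd6a-/- mothers and of wild-type mothers, and a germ cell reporter, kop::egfp-f-nos1-3'UTR, is named in the design. Its wording does not settle whether mutant embryos carried the reporter too, and nothing else is named as shared by the groups. Wild-type embryos gave 5 plates with 205 cells at 3.5 hours post fertilization (hpf), 4 plates with 101 cells at 8 hpf and 5 plates with 196 cells at 24 hpf. Mutant embryos gave 5 plates with 264 cells at 3.5 hpf, 4 plates with 112 cells at 8 hpf and 3 plates with 156 cells at 24 hpf. At 2 weeks post fertilization (wpf) there was 1 wild-type plate with 76 cells. The labels do not say whether plates came from separate clutches, so every p-value below measures the spread between plates, which may be technical. RNA was counted at its 3' end by CEL-seq, in which a transcript is tagged by well and amplified by in vitro transcription. Longer transcripts therefore do not give more counts, and levels of different genes are set side by side as transcripts per cell. Whether the values are molecules or reads is unstated, so unequal capture and, if they are reads, unequal amplification also enter the order of genes.

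Translation begins when initiation factors bring the initiator tRNA, the small ribosomal subunit and the capped mRNA together; elongation factors then deliver each aminoacyl-tRNA and move the ribosome along, and a release factor frees the finished chain. Poly(A)-binding proteins hold the mRNA tail and help initiation in the cytoplasm, or control tail length in the nucleus. Early zebrafish embryos live on mRNAs and ribosomes laid down by the mother until the genome is switched on at the mid-blastula transition, and the germ line is set aside from cells that inherit germ plasm. Many genes of the translation machinery in vertebrates, elongation factors and poly(A)-binding proteins among them, have mRNAs with a pyrimidine-rich start that ties their own translation to growth signals.

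The values are whole numbers above a floor of 0.1, called transcripts here, and a level is their mean over the cells of a plate. A cell held 156 to 855 transcripts over the listed genes, with a median of 424, and a plate 1027 to 32018 in all. The mean per cell over plates was 355 at 3.5 hpf, 465 at 8 hpf and 542 at 24 hpf, so that a gene can gain transcripts per cell without gaining a share of them. Germ cell transcripts other than h1m, from a list with 10 of 13 genes in the table, were found in 44.9% to 80.2% of the cells of each embryonic group and in 100% of those at 2 wpf. Summed over all 10 genes, h1m included, a plate held 3.81 to 15.3 transcripts per cell at 3.5 hpf, 1.67 to 12.7 at 8 hpf and 0.611 to 8.70 at 24 hpf. At 2 wpf the sum was 6.79, with 1 of the 10 genes at 0. Transcripts of nanos3 were found in 12.7% of wild-type and 10.6% of mutant cells at 3.5 hpf. These shares were 53.5% and 43.8% at 8 hpf and 54.1% and 37.2% at 24 hpf, and 1.32% at 2 wpf. Muscle markers, 8 of 18 listed, reached 6.05 transcripts per cell in a 24 hpf plate. Whether the sorted cells held other types was not tested, nor was the part of such transcripts in the values below.

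Both a plate that goes against its label and a very small plate bear on the 8 hpf values. Mutant plate 1 at 8 hpf held 5.35 transcripts per cell of 4 globin genes and 4.71 of 8 muscle genes, against at most 0.0556 and 0.5 in the other 7 plates of that stage. In the 8 plates at 24 hpf these sums were 0 to 0.548 and 0.829 to 6.05. Globin transcripts were in 100% of the cells of this plate and in at most 33.3% of those of a 24 hpf plate. In its globin genes the plate was thus like neither stage. Ribosomal protein genes made up 25.5% of its transcripts, against 5.84% to 13.3% in those 7 plates and 26.8% to 36.6% in the 8 plates at 24 hpf. Mutant plate 4 at 8 hpf held only 2 cells, in which 18 of the 26 genes were at 0. Wild-type plate 1 at 3.5 hpf and wild-type plate 3 at 8 hpf held 4 and 6 cells. Stage results of the translation factors are therefore also given without these 3 small plates (under 10 cells each) and mutant plate 1 where that changes them.

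The most abundant translation factor transcript at every stage was eef1a1l1, which encodes the elongation factor that delivers aminoacyl-tRNA. Its level was 2.25 ± 0.61 transcripts per cell at 3.5 hpf (SD, n = 10 plates), 5.71 ± 2.28 at 8 hpf (n = 8) and 7.28 ± 1.73 at 24 hpf (n = 8), and it held 19.7%, 34.4% and 31% of all translation factor transcripts at these stages. Next in order were eef2b, the translocation factor, at 1.15 ± 0.34, 1.48 ± 0.62 and 3.31 ± 0.76, and the cytoplasmic poly(A)-binding gene pabpc1a, at 0.916 ± 0.375, 1.44 ± 0.65 and 1.62 ± 0.28. The levels of eef2b and pabpc1a lay within 1 SD of each other at 3.5 and 8 hpf, and eif5a and eef1g came between them at 24 hpf. Most members were scarce: 24 of 26 were under 1 transcript per cell at 3.5 hpf, 23 at 8 hpf and 21 at 24 hpf. No initiation factor reached a mean of 1 over all plates of a stage, though EIF4G1 averaged 1.07 in the 4 wild-type plates at 8 hpf. The mean levels of the 15 ran from 0.0469 (eif3f) to 0.694 (EIF1B) at 3.5 hpf and from 0.0634 (eif6) to 0.731 (eif3g) at 24 hpf.

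**Figure D1:**
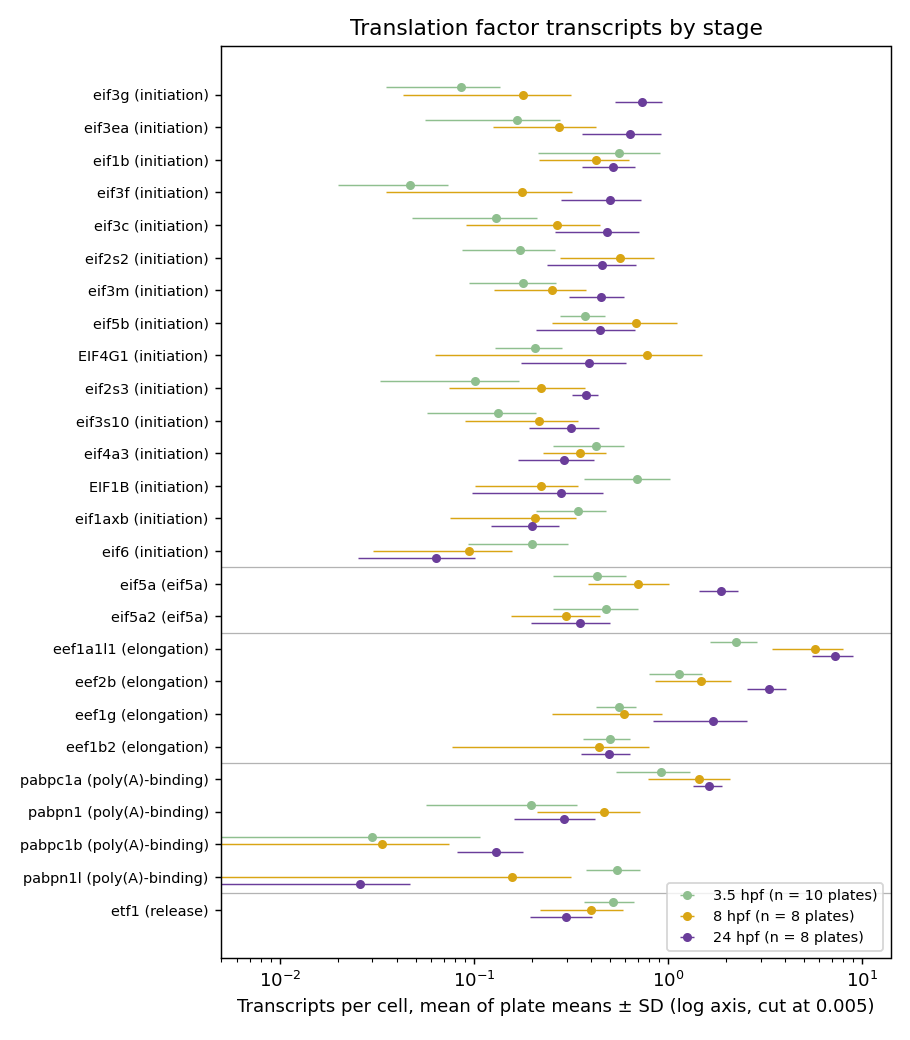
Transcripts per cell of the 26 translation factor genes on a log axis, as the mean of plate means with its SD, for 10 plates at 3.5 hpf, 8 at 8 hpf and 8 at 24 hpf. The elongation factor eef1a1l1 sits highest at every stage, at 7.28 transcripts per cell at 24 hpf, and pabpn1l falls to 0.0259.

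From 3.5 to 8 hpf, 6 translation factor genes rose and 3 fell, by limma on log2 of the plate level plus 0.2, with both genotypes averaged and Benjamini-Hochberg adjustment over 910 tested genes. All 26 members passed the filter on low values. Every listed gene reached at least 4 transcripts in some cell. Of members called in either step, eif2s3, eif3ea, eif3f and eif3g did so among embryonic groups only at 24 hpf. Only at 8 hpf did eif3m and pabpn1, and only at 3.5 hpf pabpn1l and eif6. Such genes may be listed through a stage where they are high, so their stage differences are not independent of the listing. Fold changes below are of the level plus 0.2, and understate those of scarce genes. The risers were eef1a1l1, eif2s2, EIF4G1, pabpn1, eif3f and eif2s3, and those that fell were pabpn1l, EIF1B and eif6. Of all tested genes, 20% rose and 28.7% fell, so 9 of 26 members called is no larger a share than the 48.7% called overall. The median member differed by 0.27 on the log2 scale, against -0.01 for all genes tested. With plates rescaled to equal totals, 3 of 26 members rose and 8 fell, beside 137 and 335 of 910 tested genes. The median over all genes was then -0.18, and the members' median was 0.05. Without the small plates and mutant plate 1, 7 of the 9 calls held; eif2s3 and pabpn1 were lost, and eif5b and pabpc1a were gained. Leaving out mutant plate 4 alone gave 13 higher and 2 lower, while 26.6% of all genes were then called higher and 26.9% lower.

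Among initiation factors, the eIF2 subunits carry the initiator tRNA to the ribosome. Levels of eif2s2, the beta subunit, ran from 0 to 0.286 at 3.5 hpf with a median of 0.183, from 0 to 0.857 at 8 hpf with a median of 0.638, and from 0.279 to 0.944 at 24 hpf with a median of 0.375. In 7 of 8 plates at 8 hpf it lay above every plate at 3.5 hpf, the exception being the plate of 2 cells, where it was at 0. The increase was 1.90-fold on the log2(level + 0.2) scale (log2 0.93 ± 0.25 SE, adjusted p = 0.00229). This call held in wild-type plates alone but not in mutant plates alone. By limma, the genotype difference of eif2s2 was not called as changing in this step (log2 -0.58, adjusted p = 0.986). From 8 to 24 hpf the difference was -0.06 ± 0.26 (adjusted p = 0.906). The gamma subunit, eif2s3, which binds the tRNA and GTP, had medians of 0.117, 0.206 and 0.377 at 3.5, 8 and 24 hpf, and at 24 hpf all 8 plates (0.3 to 0.467) stood above all 10 plates at 3.5 hpf (0 to 0.222). It passed the test in both steps, with 0.44 ± 0.18 (adjusted p = 0.0424) and 0.54 ± 0.19 (adjusted p = 0.0255). Neither call held with plates rescaled to equal totals (adjusted p = 0.156 and 0.125), and the first also failed without the small plates and mutant plate 1 (adjusted p = 0.0836). Leaving out a single plate ended the first call for 10 of 26 plates (adjusted p up to 0.11) and the second for 4 of 26, wild-type plates 1 and 2 and mutant plate 4 at 8 hpf and mutant plate 3 at 24 hpf (adjusted p up to 0.0635).

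The scaffold of the cap-binding complex, EIF4G1, was uneven at 8 hpf. Its levels there were 1.62, 0.469, 2 and 0.2 in the wild-type plates and 1.04, 0.528, 0.346 and 0 in the mutant plates, against 0.0625 to 0.324 over the 10 plates at 3.5 hpf. In 6 of 8 plates at 8 hpf it exceeded every plate at 3.5 hpf. It rose 1.89-fold (log2 0.92 ± 0.31 SE, adjusted p = 0.0135), and the call held in the 9 other settings that kept both genotypes and in wild-type plates alone (adjusted p = 0.026), but not in mutant plates alone (log2 0.60, adjusted p = 0.293). Its 8 hpf means were 1.07 ± 0.87 in wild type and 0.479 ± 0.434 in mutant (SD, n = 4 each). By limma, its genotype difference was not called as changing from 3.5 to 8 hpf (log2 -0.63, adjusted p = 0.986). Without the small plates that change was 0.22. The levels of 2 and 0 are from the plates of 6 and 2 cells, and 1.04 is from mutant plate 1. At 24 hpf its median was 0.317. The ribosome joining factor eif5b had a like profile, with medians of 0.356, 0.691 and 0.411, and did not pass the test with all plates (log2 0.44, 95% interval -0.10 to 0.98, adjusted p = 0.173) but did without the small plates and mutant plate 1 (log2 0.63, adjusted p = 0.0289).

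The table holds 6 genes of eIF3, the multisubunit complex that bridges the small subunit and the mRNA: eif3c, eif3ea, eif3f, eif3g, eif3m and eif3s10, an older name of the largest subunit. Medians of eif3g over plates were 0.0921 at 3.5 hpf, 0.165 at 8 hpf and 0.66 at 24 hpf. At 24 hpf its lowest plate (0.512) was above the highest at 8 hpf (0.360), a separation seen for 4.62% of all tested genes. The increase from 8 to 24 hpf was 2.57-fold (log2 1.36 ± 0.21 SE, adjusted p = 7.1e-06), the smallest adjusted p of any member in that step. In eif3f, plates ran from 0 to 0.0714 at 3.5 hpf, from 0 to 0.375 at 8 hpf and from 0.195 to 0.9 at 24 hpf. It was the scarcest eIF3 gene at 3.5 hpf, in 4.55% ± 2.61 of the cells of a plate (SD, n = 10), and was found in 36% ± 12.7 at 24 hpf (n = 8). Both steps passed the test, at 0.52 ± 0.21 (adjusted p = 0.0413) and 0.93 ± 0.22 (adjusted p = 0.00121), and the first was lost with plates rescaled to equal totals (adjusted p = 0.0703) and when any 1 of 12 plates was left out (adjusted p up to 0.122).

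Of the other eIF3 genes, eif3ea had a range of 0 to 0.5 at 8 hpf and 0.259 to 1.1 at 24 hpf, where 6 of 8 plates stood above every 8 hpf plate (log2 0.79 ± 0.26 SE, adjusted p = 0.0155). Levels of eif3m went from a median of 0.287 to one of 0.402, and it was also called higher at 24 hpf. Neither call held with plates rescaled to equal totals (adjusted p = 0.0684 and 0.176). That of eif3ea was also lost without mutant plate 3 at 24 hpf (adjusted p = 0.0679), and that of eif3m without any 1 of 9 plates (adjusted p up to 0.11). The genes eif3c and eif3s10 were not called in either step; their means were 0.129, 0.268 and 0.485 for eif3c, and 0.134, 0.216 and 0.316 for eif3s10. eif3c was called higher in the first step with the replicate block, with plates weighted by their cells and without the small plates (adjusted p = 0.0347, 0.023 and 0.0462). In the second step it was called with weights, without the small plates and without mutant plate 1 at 8 hpf (adjusted p = 0.0218, 0.0417 and 0.0492). All 6 eIF3 genes had positive differences in both steps, and 5 of them also at 24 against 8 hpf under limma voom with a value above 0.3; eif3s10 was at 0.04 there.

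The paralogs EIF1B and eif1b, both kin of eIF1, which guards start codon choice, were called differently in the first step; the difference between them was not tested. EIF1B was at 0.269 to 1.25 at 3.5 hpf with a median of 0.657, and at 0 to 0.375 at 8 hpf with a median of 0.235; 6 of 8 plates at 8 hpf were below the lowest at 3.5 hpf. It fell 2.08-fold (log2 -1.06 ± 0.23 SE, adjusted p = 0.00033), and its share of cells went from 47.8% ± 17.1 to 18.8% ± 9.2 (SD over 10 and 8 plates). eif1b had medians of 0.481, 0.491 and 0.499 at the 3 stages and was not called (log2 -0.30 ± 0.25 and 0.29 ± 0.27), although it too was lower at 8 hpf with plates rescaled to equal totals (log2 -0.56, adjusted p = 0.0478). As near copies with like names they may share reads, and how the counting treated such reads is not known. The subunit-separating factor eif6, which also acts in making the large subunit, had medians of 0.198, 0.113 and 0.0563 and was called lower at 8 hpf, a call lost without any 1 of 14 plates (adjusted p up to 0.132). Of the last initiation members, eif1axb, the helper of scanning, had means of 0.343, 0.206 and 0.198, and eif4a3, a helicase best known from the exon junction complex and counted here by its name, 0.425, 0.352 and 0.292. Neither was called in either step, though eif1axb was lower at 8 hpf with plates rescaled to equal totals (log2 -0.67, adjusted p = 0.00821).

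**Figure D2:**
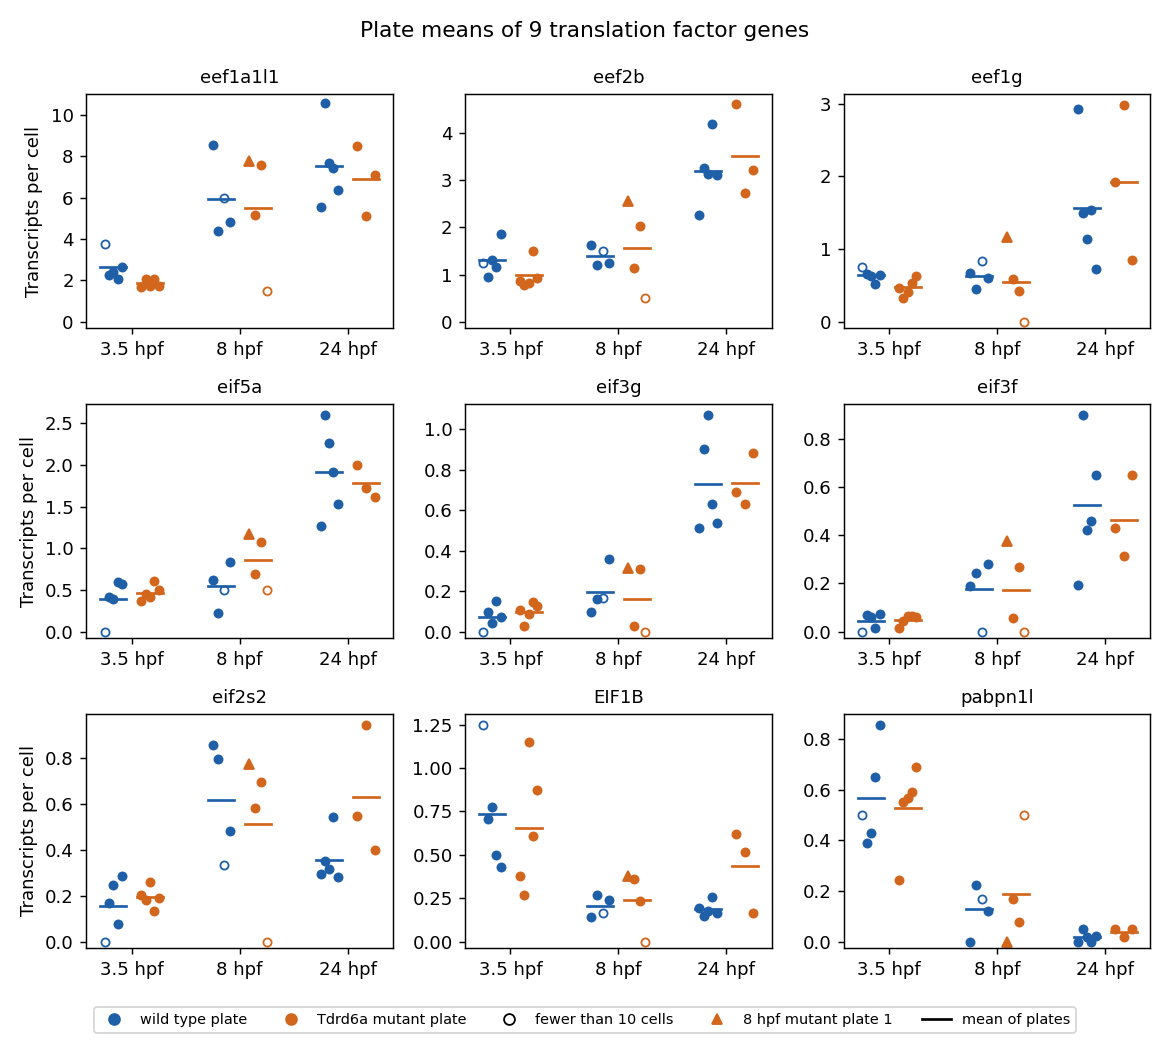
Level in transcripts per cell of 9 translation factor genes in every plate, by stage and genotype; lines are group means, open points plates of fewer than 10 cells and the triangle mutant plate 1 at 8 hpf. Each eif3g and eif5a plate at 24 hpf is above all plates at 8 hpf, and pabpn1l falls from 0.243 to 0.857 at 3.5 hpf to at most 0.05 at 24 hpf.

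From 8 to 24 hpf, 9 members rose and 1 fell, while 29.1% of all tested genes rose and 9.45% fell, 38.6% called in all. The risers were eif3g, eif5a, eef2b, eef1g, eif3f, pabpc1b, eif3ea, eif2s3 and eif3m, and the 1 that fell was pabpn1l. The median member differed by 0.31 on the log2 scale, against 0.10 over all genes. Rescaling plates to the same total left 5 of 26 members higher and 1 lower, beside 216 and 101 of 910 tested genes. Limma voom scales each plate by its total and weights it by depth. It gave 4 members higher and 5 lower, beside 189 and 243 of 910 genes, with a median over all genes of -0.33. The 5 lower members were EIF4G1, eif2s2, eif5b, eif6 and etf1. Calls for eif3g, eif5a, eef2b and eef1g held in all 9 other settings that kept both genotypes in 1 fit. Those for eif3g and eef2b also held in each genotype alone. That for eef1g was lost in wild-type plates alone and that for eif5a in mutant plates alone. For neither gene was the genotype difference called as changing in this step. Without the small plates and mutant plate 1, 9 calls held and pabpn1l was lost (adjusted p = 0.0622).

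The factor eif5a, a small protein with the amino acid hypusine that helps ribosomes through difficult peptide bonds and at termination, was called in the second step. Its 3.5 hpf plates ran from 0 to 0.607, its 8 hpf plates from 0.224 to 1.17 and its 24 hpf plates from 1.27 to 2.60, with medians of 0.432, 0.657 and 1.82. No plate at 24 hpf overlapped those at 8 hpf. The change from 8 to 24 hpf was 2.37-fold (log2 1.24 ± 0.26 SE, adjusted p = 0.000205), and that from 3.5 to 8 hpf was 0.52 ± 0.24 and not called (adjusted p = 0.0765). The share of cells with eif5a went from 33.5% ± 15.3 to 50.5% ± 14.3 and 80.6% ± 8.8 (SD over 10, 8 and 8 plates). Its paralog eif5a2 had medians of 0.461, 0.247 and 0.329 and was not called in either step (log2 -0.43 ± 0.22 and 0.15 ± 0.23), although it was lower at 8 hpf with plates rescaled to equal totals (log2 -0.69, adjusted p = 0.0062).

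Of the 4 elongation factors, 1 was called in the first step and 2 in the second. For eef1a1l1 the wild-type plates held 3.75, 2.28, 2.41, 2.08 and 2.64 transcripts per cell at 3.5 hpf and 8.52, 4.39, 6 and 4.80 at 8 hpf. The mutant plates held 1.70, 2.07, 1.72, 2.08 and 1.75 at 3.5 hpf and 7.77, 5.14, 7.58 and 1.5 at 8 hpf. In 7 of 8 plates the 8 hpf level exceeded every 3.5 hpf plate, and the plate of 2 cells fell below them all. It rose 2.25-fold (log2 1.17 ± 0.25 SE, adjusted p = 0.000194), a call that held with plates rescaled to equal totals (adjusted p = 0.00601) and when any 1 plate was left out. From 8 to 24 hpf its difference was 0.43 (95% interval -0.11 to 0.97, adjusted p = 0.215).

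Both eef2b and eef1g passed the test in the later step only; whether their steps differed was not tested. Levels of eef2b were 0.791 to 1.86 at 3.5 hpf, 0.5 to 2.56 at 8 hpf and 2.27 to 4.62 at 24 hpf, and 7 of 8 plates at 24 hpf stood above every plate at 8 hpf. The increase from 8 to 24 hpf was 2.22-fold (log2 1.15 ± 0.24 SE, adjusted p = 0.000231), after 0.26 ± 0.23 in the first step (adjusted p = 0.352). A subunit of the exchange complex that reloads eEF1A with GTP, eef1g, had medians of 0.583, 0.592 and 1.52 and rose 2.50-fold from 8 to 24 hpf (log2 1.32 ± 0.30 SE, adjusted p = 0.000525). At 24 hpf it was spread widely, from 0.721 to 2.98, and 5 of 8 plates exceeded every plate at 8 hpf. The exchange factor itself, eef1b2, was not called in either step, with medians of 0.461, 0.364 and 0.527 and a first difference of -0.32 (adjusted p = 0.312). It was lower at 8 hpf with plates rescaled to equal totals (log2 -0.58, adjusted p = 0.0381) and with limma voom (log2 -0.60, adjusted p = 0.0428). Over the 4 elongation genes the median difference from 3.5 to 8 hpf was 0.09, and was -0.21 with plates rescaled to equal totals, and from 8 to 24 hpf it was 0.79 and 0.56. Over the 15 initiation genes these medians were 0.34 and 0.20 in the first step and 0.29 and 0.11 in the second.

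**Figure D3:**
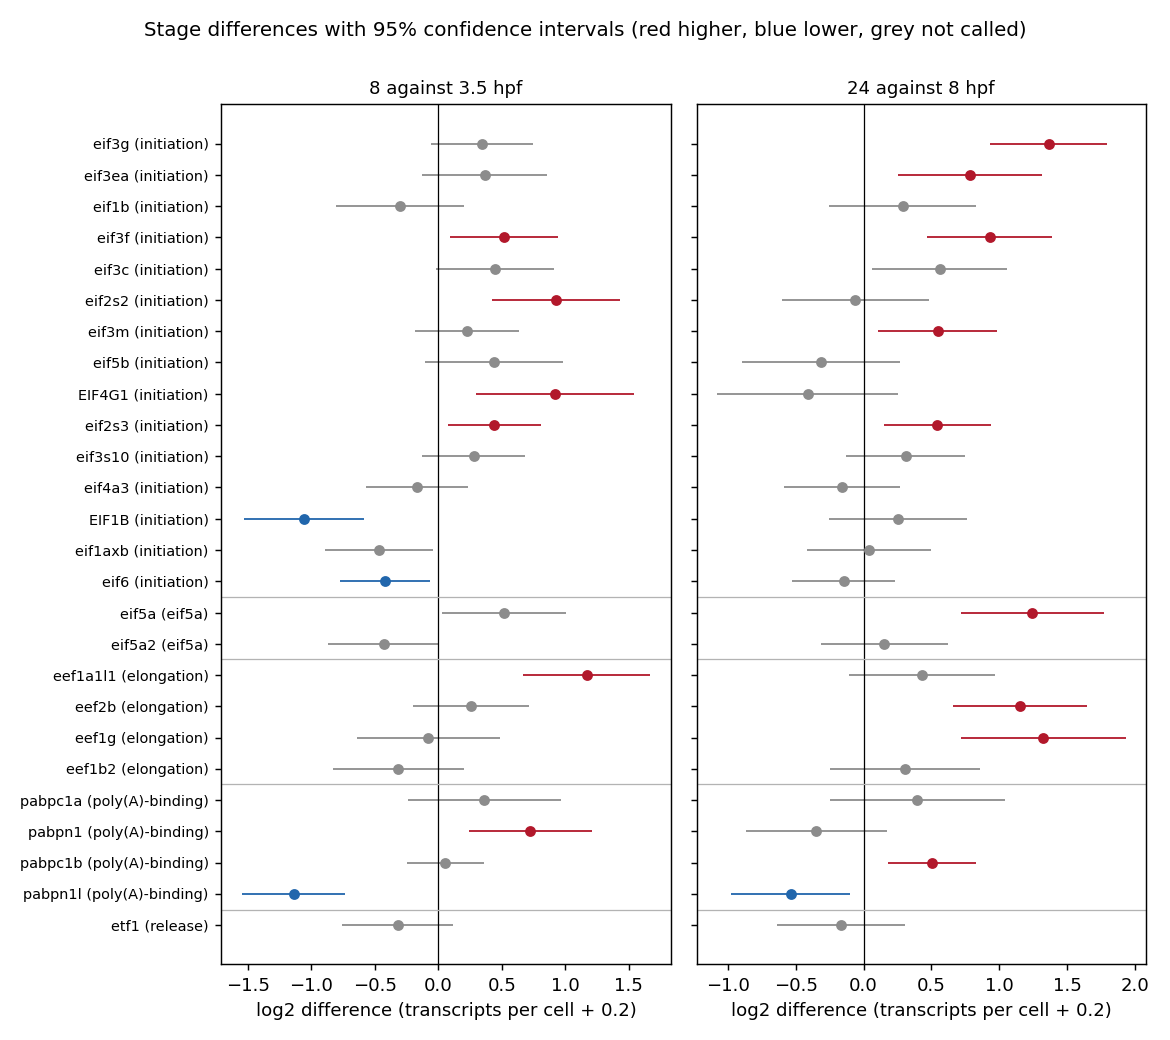
Differences of log2(transcripts per cell + 0.2) between stages for the 26 genes, with 95% confidence intervals from limma; red genes were higher and blue genes lower at an adjusted p under 0.05. The first step raised eef1a1l1 by 1.17, and the second raised eif3g by 1.36, eef1g by 1.32, eif5a by 1.24 and eef2b by 1.15.

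Poly(A)-binding genes went both ways. The gene pabpn1l encodes a poly(A)-binding protein of the egg and early embryo, which in the mouse helps remove maternal mRNAs. At 3.5 hpf it held 0.5, 0.389, 0.429, 0.652 and 0.857 transcripts per cell in the wild-type plates. In the mutant plates it held 0.243, 0.552, 0.565, 0.59 and 0.688. At 8 hpf the wild-type plates held 0, 0.224, 0.167 and 0.12 and the mutant plates 0, 0.167, 0.0769 and 0.5. At 24 hpf all 8 plates were between 0 and 0.05, below the lowest plate at 3.5 hpf. Its first decrease was 2.20-fold (log2 -1.14 ± 0.20 SE, adjusted p = 1.8e-05), and it was called lower again at 24 hpf, a call that was lost when any 1 of 17 plates was left out (adjusted p up to 0.124). It was found in 41.3% ± 10.4 of cells at 3.5 hpf, 14.8% ± 15.8 at 8 hpf and 2.08% ± 1.65 at 24 hpf (SD over 10, 8 and 8 plates).

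The somatic relative pabpn1, which sets tail length in the nucleus, had medians of 0.192, 0.458 and 0.277; 3 of 8 plates at 8 hpf exceeded all those at 3.5 hpf. It was called higher at 8 hpf (log2 0.72 ± 0.24 SE, adjusted p = 0.0118), but not without the small plates (adjusted p = 0.0747), nor without these and mutant plate 1 (adjusted p = 0.0592), nor with plates rescaled to equal totals (adjusted p = 0.0729). In the cytoplasm, pabpc1a was present throughout, with medians of 0.844, 1.5 and 1.56, and was not called (log2 0.36 ± 0.30 and 0.40 ± 0.32). Its first step passed without the small plates and mutant plate 1 (log2 0.66, adjusted p = 0.00352). Its scarcer copy pabpc1b was at 0 in 7 of 10 plates at 3.5 hpf, at 0 to 0.0952 at 8 hpf and at 0.0667 to 0.209 at 24 hpf. It was called higher in the second step (log2 0.50 ± 0.16 SE, adjusted p = 0.0119), where 6 of 8 plates exceeded every plate at 8 hpf, but not with plates rescaled to equal totals (adjusted p = 0.0531). The 2 copies may share reads. The release factor etf1, which reads stop codons, had medians of 0.474, 0.420 and 0.311 and was not called in either step (log2 -0.32 ± 0.22 and -0.16 ± 0.23), but was lower at 8 hpf with plates rescaled to equal totals (log2 -0.58, adjusted p = 0.0262).

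Between 3.5 and 24 hpf, 7 members had every late plate above every early one, eef1a1l1, eef2b, eif2s3, eif3f, eif3g, eif3m and eif5a, and pabpn1l had every late plate below. Of all tested genes, 18% and 12.2% were separated in these directions. No test of the list was made.

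Shares of cells with a transcript depend on depth, and every cell translates, so no cell type in the table could serve as one that lacks these genes. With each cell thinned to 250 transcripts, which left out 10 mutant cells at 3.5 hpf and 4 cells of each genotype at 8 hpf, eif5a was found in 25.2%, 31.5% and 55.4% of cells at the 3 stages. The thinned shares were 54.1%, 51.8% and 74.9% for eef2b, 30.9%, 26.3% and 48.7% for eef1g and 5.94%, 8.46% and 27.6% for eif3g. They were 36.7%, 11.1% and 11.6% for EIF1B and 31.5%, 7.71% and 1.1% for pabpn1l. The order of stages in these shares is that of the levels for eif5a, eif3g and pabpn1l; for eef2b and eef1g the thinned share at 8 hpf lay just under that at 3.5 hpf. For pabpc1a the share was 61.4%, 65.6% and 77.8% as measured but 48.3%, 50.1% and 51.9% thinned.

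Sums over genes follow their most abundant members, eef1a1l1 above all, and differ from the medians over genes given above. The 4 elongation genes together held 4.45 ± 0.97 transcripts per cell at 3.5 hpf (SD, n = 10 plates), 8.22 ± 3.30 at 8 hpf (n = 8) and 12.8 ± 2.1 at 24 hpf (n = 8), or 1.24% ± 0.20, 1.78% ± 0.67 and 2.35% ± 0.25 of all listed transcripts. The 15 initiation genes together held 3.82 ± 0.60, 4.91 ± 2.01 and 6.15 ± 0.60 per cell, or 1.07% ± 0.15, 1.07% ± 0.41 and 1.14% ± 0.14. Elongation transcripts per initiation transcript came to 1.18 ± 0.24, 1.93 ± 0.87 and 2.08 ± 0.28. In all 8 plates at 24 hpf this ratio was at least 1.74, above the 10 plates at 3.5 hpf, which reached 1.53. Without the small plates and mutant plate 1 it was 1.14 ± 0.22 (n = 9), 1.63 ± 0.27 (n = 5) and 2.08 ± 0.28 (n = 8). The shares at 8 hpf were then 1.19% ± 0.16 for initiation and 1.95% ± 0.46 for elongation genes. With eef1a1l1 left out of the sum the ratio was 0.583 ± 0.111, 0.561 ± 0.201 and 0.903 ± 0.189 over all plates, so without that gene the mean ratio was not higher at 8 than at 3.5 hpf but was higher at 24 hpf. The ratio is a description of these sums and was not tested.

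**Figure D4:**
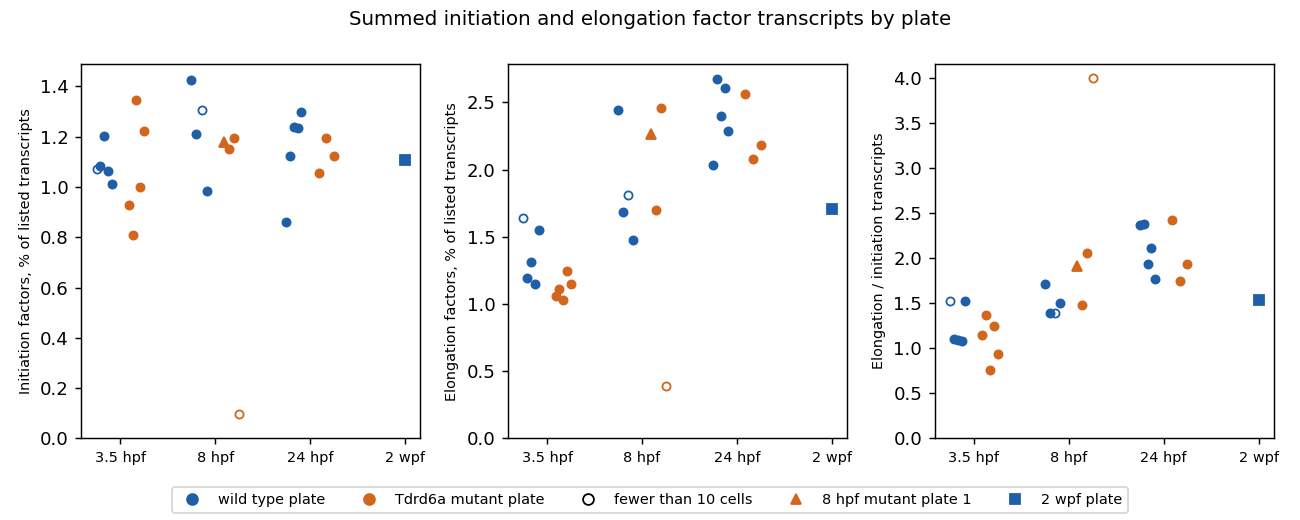
Summed initiation and elongation factor transcripts as a percentage of listed transcripts, and their ratio, in every plate by stage; open points are plates of fewer than 10 cells and the triangle is mutant plate 1 at 8 hpf. Over all plates, initiation factors stay near 1.1% on average at 3.5, 8 and 24 hpf while elongation factors go from 1.24% to 2.35%. The point at a ratio of 4 is the plate of 2 cells, which lowers the initiation mean at 8 hpf.

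Loss of Tdrd6a was asked about at each stage, and limma called no translation factor in any of the 3 genotype contrasts. Calls over all tested genes were 0.22% at 3.5 hpf, 0% at 8 hpf and 0.11% at 24 hpf. These contrasts took all cells of a plate, and the groups differed in the share of cells with germ cell transcripts. At 24 hpf a germ cell transcript other than h1m was found in 44.9% of mutant and 64.3% of wild-type cells. Transcripts of nanos3 were found in 37.2% and 54.1%. The part of this in the contrasts was not tested, and genotypes were not compared within nanos3-positive cells. At an unadjusted p under 0.05 there were 0 members at 3.5 hpf, 1 at 8 hpf and 0 at 24 hpf, beside 51, 67 and 21 of 910 genes, and limma voom also called 0 members at each stage. Without mutant plate 1 the 8 hpf count was 5 members (EIF4G1, eef1g, eif2s3, eif5b and pabpc1a) beside 85 of 895 genes, and without the small plates as well it was 0 beside 45 of 880; none was called. The 1 gene was eif5b at 8 hpf, with 1.52, 0.694, 0.833 and 0.48 transcripts per cell in the wild-type plates and 0.688, 0.778, 0.462 and 0 in the mutant plates (log2 -0.81, 95% interval -1.62 to 0.00, adjusted p = 0.599). For eef1a1l1 the group means were 2.63 ± 0.66 and 1.87 ± 0.20 in wild type and mutant at 3.5 hpf (SD, n = 5 each), 5.93 ± 1.86 and 5.50 ± 2.92 at 8 hpf (n = 4 each), and 7.51 ± 1.90 and 6.90 ± 1.71 at 24 hpf (n = 5 and 3). Its genotype difference at 3.5 hpf was -0.43 (95% interval -1.1 to 0.24, adjusted p = 1). Standard errors of single genes were 0.198 to 0.470 on the log2 scale in these contrasts. Differences of about 2 standard errors, such as -0.86 for EIF4G1 and -0.85 for pabpc1a at 8 hpf, did not pass (adjusted p = 0.62 and 0.616). That of EIF4G1 was 0.01 without the small plates, -0.32 without these and mutant plate 1, and -1.24 without mutant plate 1 alone. For pabpc1a, mutant plate 4, with 2 cells, was at 0 and wild-type plate 3, with 6 cells, at 2.33. Tests of whether the genotype difference changed between stages called 0 members from 3.5 to 8 hpf and 0 from 8 to 24 hpf, of 0% and 0% of all genes, with limma and limma voom alike, and at an unadjusted p under 0.05 there were 0 and 1, beside 46 and 39 of 910 genes. The medians over members at 3.5, 8 and 24 hpf were -0.09, -0.15 and 0.05, against -0.02, 0.00 and 0.00 over all genes; the signs of the last 2 turned under limma voom, at 0.12 and -0.01, beside 0.19 and -0.14 over all genes. At 8 hpf the members' median was -0.31 without mutant plate 1 (all genes -0.08) and 0.13 without the small plates (all genes 0.15).

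At 24 hpf the 8 plates held both cells with transcripts of nanos3, a germ cell RNA-binding gene, and cells without, 164 and 188 in all. The reporter carries the 3' end of nos1, an older name of that gene, so counts at the 3' end of reporter and gene cannot be told apart. The median total of the nanos3-positive cells was lower in all 8 plates, 510 ± 65 against 580 ± 41 transcripts (SD, n = 8 plates). Germ cell markers other than nanos3, 9 genes, summed to 2.17 to 4.11 per cell in positive and 0.1 to 0.727 in negative cells, epidermal markers (6 of 10 listed) to 0.214 to 5.67 and 1.1 to 8.17, muscle markers (8 of 18) to 0.556 to 5.5 and 0.167 to 6.65, and neural markers to 0.375 to 1.83 and 0.55 to 1.83. Depth and these markers moved with the classes, and their part in the differences was not tested.

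Within plates, eef1b2 was the only one of the 25 members tested that passed, lower in nanos3-positive cells; 5.9% of the 797 tested genes were called, 2.26% higher and 3.64% lower. In the positive cells it held 0.286, 0.429, 0.326, 0.111 and 0.133 transcripts per cell in wild-type plates 1 to 5 and 0.250, 0.167 and 0.425 in mutant plates 1 to 3. In the negative cells of the same plates it held 0.706, 1.17, 0.0909, 0.731 and 0.846, and 0.733, 0.438 and 0.600. It was lower in 7 of 8 plates, with wild-type plate 3, whose negative class had 11 cells, the exception. The difference was 1.77-fold (log2 -0.83 ± 0.24 SE, adjusted p = 0.0353). It was not called with class means rescaled to equal totals (adjusted p = 0.075) or without the low-value filter (adjusted p = 0.0885). Nor was it called in wild-type or mutant plates alone (adjusted p = 0.0742 and 0.319). The call was also lost without mutant plate 1 or 3 or wild-type plate 1, 4 or 5.

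Other members leaned without passing with all plates and at least 1 nanos3 transcript asked for. Of the elongation genes, eef1g was lower in positive cells in 6 of 8 plates (log2 -0.45 ± 0.17 SE, adjusted p = 0.107), and eef1a1l1 was at 7.58 ± 1.71 and 7.32 ± 2.25 in positive and negative cells (SD, n = 8 plates; log2 0.07, adjusted p = 0.716). eif5a2 was lower in 6 of 8 plates (log2 -0.63 ± 0.24 SE, adjusted p = 0.111). In mutant plates alone it was called lower (log2 -1.33, adjusted p = 0.0291), where 1 gene of 648 was called higher and 5 lower. In wild-type plates alone it was not (log2 -0.21, adjusted p = 0.758). Among initiation genes, eif2s3 was higher in 7 of 8 plates, at 0.513 ± 0.227 against 0.293 ± 0.057 (log2 0.49 ± 0.22 SE, adjusted p = 0.163), and eif3f and eif3g were higher in 6 of 8 each (adjusted p = 0.144 and 0.19). With at least 2 nanos3 transcripts asked for, which left 6 plates, eif3g was called higher (log2 1.1, adjusted p = 0.00143) and eef1b2 and eef1g lower (log2 -1.13 and -1.04, adjusted p = 0.0153 and 0.00118). These are 3 of 25 members in a setting that called 17.7% of 746 genes. As shares of listed transcripts, initiation genes summed to 1.23% ± 0.16 in positive and 0.998% ± 0.148 in negative cells and were higher in 7 of 8 plates. Elongation genes summed to 2.42% ± 0.30 and 2.36% ± 0.34. The ratio of elongation to initiation transcripts was lower in positive cells in 7 of 8 plates, at 1.99 ± 0.26 against 2.40 ± 0.43.

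**Figure D5:**
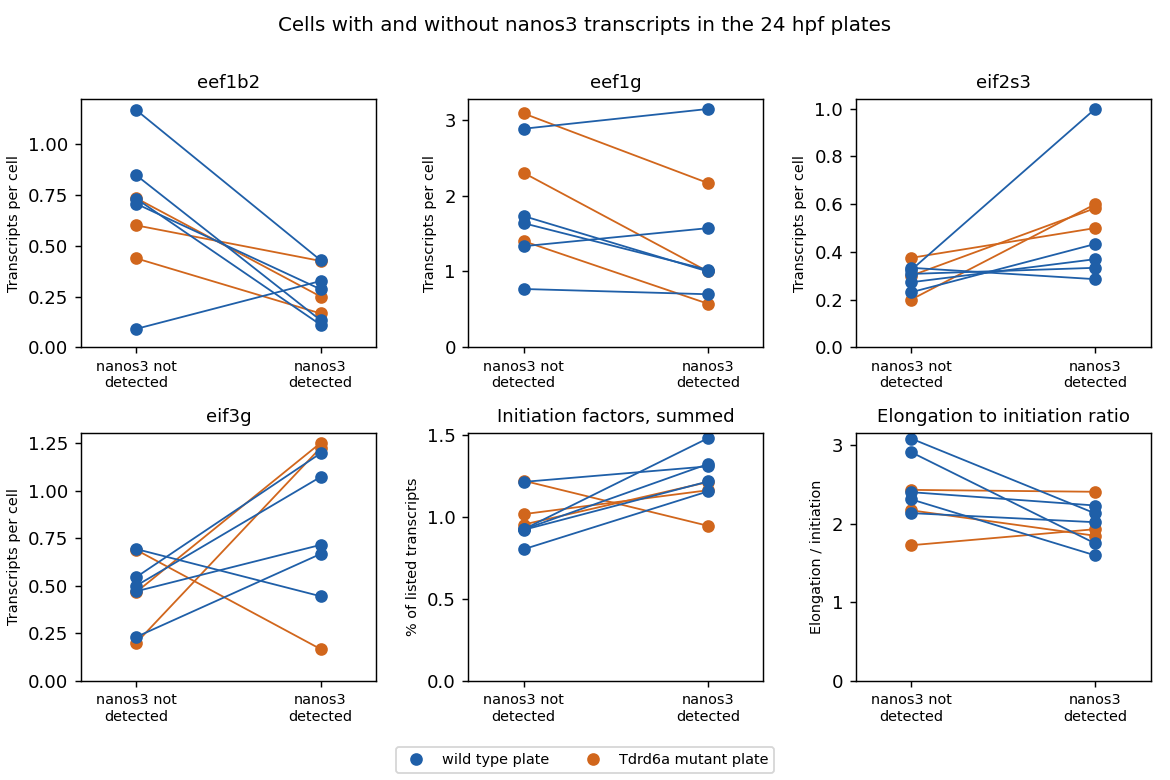
Cells without and with nanos3 transcripts in the 8 plates at 24 hpf, a line for each plate, as transcripts per cell for 4 genes, the summed initiation share in percent and the elongation to initiation ratio. Lines of eef1b2 go down in 7 of 8 plates and those of eif2s3 up in 7 of 8.

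At 2 wpf there was 1 plate and no test; its levels are set beside the 5 wild-type plates at 24 hpf. Of the members, 1 was higher and 0 lower by a log2 of at least 1 and outside their range, where 6.81% of all tested genes were higher and 5.6% lower, 12.4% in all. This was pabpc1b, at 0.684 transcripts per cell against 0.0702 to 0.209, in 38 of 76 cells (50%, exact 95% interval 38.3% to 61.7%, counting error only). The gap was 1.42 on the log2 scale. Every listed gene reached at least 4 transcripts in some cell. In a single cell pabpc1b reached 5 at 2 wpf but at most 2 in the embryonic groups. It may thus be listed only through this plate, so its higher level here is not independent of how genes came to be listed. With no limit on the size of the gap, 4 of 26 members lay above the 24 hpf range and 7 below it, where 22.7% and 21.6% of all tested genes did. The helicase gene eif4a3 was at 0.684, against 0.0976 to 0.404 at 24 hpf, eif6 at 0.224 against 0.0351 to 0.0976, and eif5a2 at 0.513 against 0.158 to 0.486. Below the range were eif2s2, eif3g, eif3m and eif3s10, and also eef1a1l1, at 5.12 against 5.54 to 10.6, eef2b, at 1.59 against 2.27 to 4.20, and eif2s3, at 0.171 against 0.3 to 0.439. The ratio of elongation to initiation transcripts was 1.54 in the 2 wpf plate, with 1.71% elongation and 1.11% initiation transcripts.

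Other genes of translation were read from lists named with these factors. Of 80 ribosomal protein genes, 33 rose and 2 fell from 3.5 to 8 hpf and 78 rose and 0 fell from 8 to 24 hpf. Their median differences were 0.49 and 1.5 on the log2 scale, against members' medians of 0.27 and 0.31. Of all tested genes, 20% rose and 28.7% fell in the first step, and 29.1% and 9.45% in the second. The list counts include mutant plate 1 at 8 hpf, with 25.5% ribosomal transcripts against 5.84% to 13.3% in the other 7 plates, and are not given without it. Of 5 ribosome-associated and dormancy factors, 2 rose and 1 fell in the first step and 2 rose in the second. HABP4, of a family that holds idle ribosomes, went from 0.411 ± 0.163 to 0.0491 ± 0.0435 transcripts per cell (adjusted p = 3.0e-06), and its relative serbp1a from 0.210 ± 0.141 to 0.515 ± 0.233 (adjusted p = 0.0155; SD over 10 and 8 plates). The chaperone subunit btf3 rose in both steps, from 0.342 to 0.643 and 1.83, and gnb2l1, the ribosome scaffold RACK1, in the second, from 0.836 to 2.39.

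Of 12 RNA-binding genes of translational control, 2 rose and 5 fell from 3.5 to 8 hpf and 1 fell from 8 to 24 hpf, beside the shares of all genes just given. The deadenylase subunit cnot8 went from 0.534 ± 0.107 to 0.0538 ± 0.0427 transcripts per cell (adjusted p = 2.1e-10), and lsm14b, of a family that represses mRNAs, from 0.586 ± 0.310 to 0.0221 ± 0.0434 (adjusted p = 1.8e-07; SD over 10 and 8 plates). btg4, which in the mouse brings that deadenylase to maternal mRNAs, was at 0 to 0.924 at 3.5 hpf and at 0 in all 8 plates at 8 hpf (adjusted p = 2.8e-07). igf2bp1 rose from 0.0677 ± 0.0667 to 0.857 ± 0.378 (adjusted p = 1.9e-07), and the stress granule gene g3bp1 fell from 0.597 ± 0.099 at 8 hpf to 0.175 ± 0.065 at 24 hpf (adjusted p = 3.8e-05; n = 8 each). No gene of these lists was called between genotypes. Between nanos3 classes 7 of 80 ribosomal protein genes were lower in positive cells, and 0 genes of the other lists were called by limma. Of all 797 tested genes, 29 (3.64%) were lower, and 5 were with class means rescaled to equal totals. Positive cells had the lower median total in all 8 plates, and the part of depth in the ribosomal calls was not tested. No aminoacyl-tRNA synthetase name was in the table.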

How the data were processed

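Single sorted cells were profiled by CEL-seq. The submitters' processing notes list BWA (no version) and Zv9; how counts were made, scaled and selected for genes and cells is not given in the sources used here. As deposited by the authors, the signal values of the single table are whole numbers plus 0.1 (tolerance 1e-06); the part above 0.1 is called transcripts, molecules or reads being unstated. No genome was used, so no sequence or coordinate is given.

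Members and lists were chosen with earlier results of these data known. Every row named eif, eef, pabp or etf1 is a member. Plate values and full statistics were given to called members, at most the 8 of smallest adjusted p per contrast; the rest by levels. Of list genes, at most 4 called genes a list and contrast were named.

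Transcripts were averaged over the cells of each plate. Genes with at least 0.1 transcripts per cell in at least 3 plates were tested (910). Limma 3.58.1 in R 4.3.3, with the trend and robust options, was run on log2(level + 0.2), with 26 plates in 6 groups and 1 fit; fold changes on this scale understate those of scarce genes. Two-sided p-values were adjusted over all tested genes (Benjamini-Hochberg), with a threshold of 0.05. Stage contrasts average both genotypes. Classes of nanos3 (at least 1 transcript against none) were compared at 24 hpf with plate as a block, over 797 genes without nanos3. The procedure was also run on simulated plates with the same spread for every gene and, for the nanos3 classes, the same number of cells in each. The data differ in both, so that run does not show how reliable the calls are here. A plate labelled with both 8 and 24 hpf (45 cells) and 48 wells described as heterozygous on mutant plate 1 at 8 hpf entered no comparison, and 1 cell lay beyond the 96 listed barcodes; barcodes mark wells, and 96 of 97 well numbers occur in more than 1 library. Precision follows depth, 1027 to 32018 transcripts per plate. Alternatives were another added constant, no filter, rescaling, weights, limma voom, a replicate block, single genotypes, leaving out plates, and other nanos3 classes.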

Additional observations from a re-analysis of the deposited data

Results flagged for a closer look

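In 13 of 130 combinations of a gene and a group of 4 or 5 plates, the highest or lowest plate stood apart by Dixon's criterion, where chance gives about 1 in 20, or 6.5. Values are transcripts per cell, with the nearest plate of the group after each. Plates of fewer than 10 cells gave 6 of them. Mutant plate 4 at 8 hpf, with 2 cells, was at 0 for eif1axb (nearest 0.278), eif1b (0.462) and pabpc1a (1.46). Wild-type plate 1 at 3.5 hpf, with 4 cells, was at 1.5 for eif1b (0.53) and at 0.25 for pabpc1b (0). Wild-type plate 3 at 8 hpf, with 6 cells, was at 2.33 for pabpc1a (1.55).

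The other 7 came from plates of 14 to 61 cells. At 3.5 hpf, wild-type plate 5 was at 1.93 for pabpc1a (1.02), mutant plate 3 at 0.522 for eif5b (0.377), mutant plate 4 at 1.51 for eef2b (0.938) and mutant plate 5 at 0.812 for etf1 (0.448). Wild-type plate 4 at 8 hpf was at 0.04 for eif3s10 (0.286). At 24 hpf, wild-type plate 4 was at 0.543 for eif2s2 (0.35) and wild-type plate 1 at 0.756 for EIF4G1 (0.349).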

How the results depend on the processing

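Counts are of translation factors called at an adjusted p under 0.05. From 3.5 to 8 hpf the 9 calls became 8 to 12 in the settings that kept all plates and both genotypes, 5 in wild-type plates alone and 3 in mutant plates alone, and 6 to 15 when 1 plate was left out (15 without mutant plate 4 at 8 hpf, the plate of 2 cells, where 53.5% of all genes were called). From 8 to 24 hpf the 10 calls became 6 with plates rescaled to equal totals, 4 in wild-type plates alone and 4 in mutant plates alone. They became 6 to 11 when 1 plate was left out (6 without mutant plate 3 at 24 hpf). Of 910 tested genes, 106 rose and 210 fell in the first step in wild-type plates alone, and 107 and 183 in mutant plates alone. In the second step these counts were 219 and 63, and 145 and 24. Rescaled plates gave 216 and 101 in that step, where 265 and 86 genes stood beside the 10 calls. Between nanos3 classes the single call became 0 with no filter, 0 with class means rescaled and 0 in wild-type plates alone. In mutant plates alone 1 member was called, eif5a2 in place of eef1b2. The count was 3 with at least 2 nanos3 transcripts (a setting that called 17.7% of all genes), and 0 to 2 when 1 plate was left out. Without the replicate block of plates it became 0. The genotype contrasts and their changes between stages stayed at 0 under every setting run. The 24 hpf ratio was 2.44 with the eif5a genes counted as elongation factors, and with 1 added on the log scale 0 members passed at 2 wpf. The causes of these changes were not tested. No named gene changed direction where it was called.

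Over all genes, 182 rose and 261 fell from 3.5 to 8 hpf, against 137 and 335 with plates rescaled and 190 and 318 with limma voom; from 8 to 24 hpf the split was 265 and 86, 216 and 101, and 189 and 243. Replicate numbers were not taken to pair the plates, since not every same-numbered pair correlated above 0.1. So strict a rule cannot decide against pairing, which stays unsettled. Same-numbered pairs ran from -0.41 to 0.32 (median 0.03), with 16 of 58 above 0.1, against 34 of 222 differently numbered pairs. Of 26 plates, 11 correlated best with a plate of their own number. With the replicate block 8 members were called from 3.5 to 8 hpf (6 higher, 2 lower) and 9 from 8 to 24 hpf (8 higher, 1 lower). Depth limits the scarce genes most, since plates of 2 to 6 cells give levels in coarse steps.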

Other observations

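The wells of mutant plate 1 at 8 hpf described as heterozygous (48 cells) and those described as mutant (48 cells) had like levels: eef1a1l1 was at 8.65 and 7.77 transcripts per cell, eef2b at 2.98 and 2.56, eif5a at 0.958 and 1.17 and EIF4G1 at 0.708 and 1.04. The heterozygous wells also held 5.73 transcripts per cell of globin genes and 4.75 of muscle genes, and 25.8% of their transcripts were from ribosomal protein genes. In the plate labelled with both 8 and 24 hpf, the last 48 barcodes, described as 24 hpf, held 40 cells with eef1a1l1 at 7.63, eef2b at 3.73, eif5a at 2.40 and eif3g at 0.875; the first 48 held 5 cells. These values entered no comparison.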
